A study of Mus musculus with 3 samples.

Results

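The cytosolic ribosomal protein genes encode the proteins of the large and the small ribosomal subunit, which together with ribosomal RNA form the particle that translates messenger RNA outside mitochondria. Genes were taken by their symbols, Rpl or Rps followed by a number and at most 1 of the letters a, l, x and y, with Rplp0 to Rplp2 and Rpsa added. Among 24315 gene names in the files, 80 met this rule, and 1 more, Rpl10l, met it through its transcript accession and was at 0 in every library. FPKM (fragments per kilobase of transcript, scaled to the depth of the library) reached 1 in some library for 76 of the 81 genes, 45 of the large and 31 of the small subunit. The lowest member was Rpl29, with an FPKM of at most 4.41, and the highest gene left out was Rpl21, with at most 0.76. By the same limit 11323 genes of any kind were expressed.

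RNA came from spheres of 4T1, a mouse triple negative breast cancer cell line of the Balb/c strain, grown without attachment for 7 days to enrich cancer stem cells (CSCsp) and kept on a strainer of 40 µm. The library labelled R stands for CSCsp co-cultured with tumor antigen primed splenocytes whose activation had been reinforced by beads against CD3 and CD28 with IL2. The library labelled P stands for CSCsp co-cultured with primed splenocytes without that step, and the library labelled N for CSCsp with no co-culture. All 3 share the same cells and culture. The splenocytes came from female Balb/c mice, 8 weeks old when injected, that had carried 4T1 tumors for 28 days, and RNA of independent experiments was pooled into 1 library per condition. No difference below therefore has a replicate check, an SD or a p-value. Intervals on ratios are exact 95% Clopper-Pearson intervals, and those on levels exact Poisson intervals. They cover counting error only.

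The labels of 2 libraries are in doubt. Under its deposited name the library labelled N would be the one exposed to splenocytes kept in saline, while the name given to the library labelled P says that nothing was added. The letters R, P and N below are the labels, and each direction between P and N would turn if these were exchanged. R/N, R/P and P/N are the ratios of these libraries. Leukocyte RNA was lowest in P. Of 43 leukocyte markers 13 reached an FPKM of 1 in R, 2 in P and 11 in N, with summed FPKM of 89.99, 32.9 and 100.9 in R, P and N, and 12, 28 and 13 of the markers at 0. Ptprc, the pan-leukocyte antigen CD45, was at 0.31 in R, 0 in P and 0.20 in N. Cd3e, of the T cell receptor complex, was at 0.077 in R and at 0 in P and N. Markers with higher values differed in direction between R and N. Lyz2 was at 6.51 in R, 0.31 in P and 28.9 in N, and S100a9 at 2.03, 0 and 5.74. Mpeg1 was at 24.5 in R, 0.23 in P and 0.70 in N. Of 14 markers with an FPKM of 1 in some library, 9 had a log2 ratio below 0 in R/N (39.7% of all genes). The other 5 lay above 0 (60.3%). All 17 epithelial and 4T1 markers reached an FPKM of 1 in each library, and their FPKM summed to 5269 in R, 3447 in P and 4429 in N. The higher sum in R does not hold for most of them singly. In R/N 10 of the 17 had a log2 ratio below 0 (39.7% of all genes) and 7 above 0 (60.3%), with a median of -0.17. The part of leukocyte RNA in the values below was not tested. In such bulk RNA a lower RNA content per cell and fewer cells of a type cannot be told apart. The libraries held 19178982 (R), 17887652 (P) and 17894139 (N) fragments, estimated from coverage.

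As background, each ribosome holds 1 copy of almost every one of these proteins, so their genes are expressed at high and similar levels in growing cells. Their transcripts belong to the TOP mRNAs, which begin with a C followed by a run of pyrimidines (C or T). The kinase mTORC1 and the RNA-binding protein LARP1 act through this run to set how much of the mRNA is translated. Processed pseudogenes, copies of the mRNA pasted back into the genome, are more numerous for this family than for almost any other, which bears on how reads can be assigned to the genes.

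The pyrimidine run can be seen at the start sites of members with high expression. The promoters below are shown because they carry it, and run from 40 bases before the RefSeq start site to 20 bases from it on, on GRCm38.p6. The longest run that opens with C and has at least 6 pyrimidines stands in capitals.
Rpl13, chr8:123102310-123102369, plus strand: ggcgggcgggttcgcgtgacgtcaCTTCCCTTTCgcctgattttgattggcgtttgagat
Rpl28, chr7:4792925-4792984, plus strand: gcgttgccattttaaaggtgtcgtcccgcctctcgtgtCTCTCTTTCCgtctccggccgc
Rps9, chr7:3704001-3704060, plus strand: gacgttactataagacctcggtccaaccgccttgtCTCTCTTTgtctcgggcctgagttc
Rps26, chr10:128626487-128626546, minus strand: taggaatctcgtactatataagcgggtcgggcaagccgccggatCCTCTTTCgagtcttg
Rps6, chr4:86857348-86857407, minus strand: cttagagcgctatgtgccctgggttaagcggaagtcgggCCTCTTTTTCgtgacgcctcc
For Rps6 the run of 10 bases covered the start site itself, while for Rpl13 it lay before the annotated start and for Rps26 after it. Promoter sequences from RefSeq matched 55 of the 76 members. Within 30 bases on either side of the start, on the strand of the gene, 42 of the 55 (76.4%) held such a run, against 38.2% of 7623 expressed genes. The share was 72.7% for the large subunit (24 of 33) and 81.8% for the small (18 of 22). Among the promoters without it were those of Rpl41 and Rps16. The motif CCGGAAG, the core bound by ETS factors, was found on either strand within the 300 bases of 38.2% of the members' promoters and 21.0% of all promoters. The motif GGGCGG, bound by SP1, was found in 33 of the 55 and in 69.4% of all promoters. A match is a description of these letters and not of a factor at the site.

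Ribosomal protein genes were expressed at a high and similar level in all 3 libraries. The median FPKM of the members was 512.2 in R, 538.8 in P and 585.7 in N, against a median over all expressed genes of 9.62 in R, 8.97 in P and 8.87 in N. An FPKM of 200 or more was reached by 61 members in R, 62 in P and 62 in N. Rplp1, an acidic protein of the stalk that recruits elongation factors, was the highest, with an FPKM of 1477 in R, 1571 in P and 1706 in N. Rpl41, the smallest of the family, was at 1141 in R, 1333 in P and 1456 in N. In the small subunit Rps9, which lies near the entry of the mRNA channel, was at 932.1 in R, 1092 in P and 1223 in N. Rps15, which reaches toward the decoding site, was at 839.7 in R, 1028 in P and 1081 in N. In these 4 genes R was lowest and N highest, as in 64 of the 76 members.

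**Figure D1:**
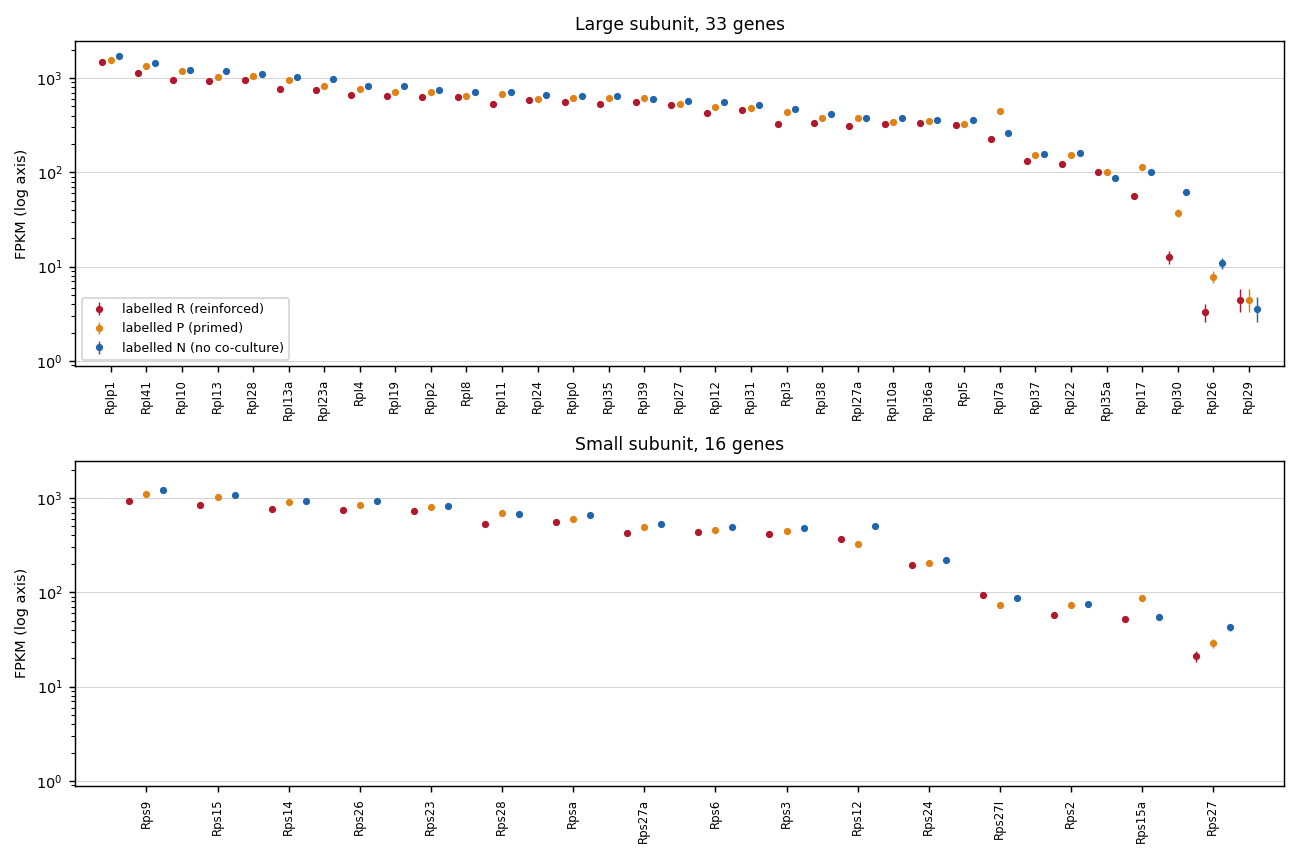
FPKM (vertical, log axis) of 49 members in the libraries labelled R, P and N, large subunit above and small subunit below, ordered by mean FPKM. Each point is the sum of a gene and its bar the exact 95% Poisson interval, mostly smaller than the points; for Rplp1 the point of R lies at 1477, under those of P at 1571 and N at 1706, and a tail of low genes ends at Rpl29 with 4.39, 4.41 and 3.54.

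The library labelled R held the lowest value of the 3 for most members. R was lowest for 71 of the 76 (93.4%), 43 of 45 in the large and 28 of 31 in the small subunit, while it was lowest for 32.6% of all 11323 genes. Among the others were Rpl29, Rpl35a, Rps12 and Rps27l. The 71 include Rps27 and Rpl26 by their own names, while their whole loci, given further below, were lowest in N. The members' median log2 ratio was -0.28 in R/N, a ratio of 0.82, where the median over 11202 genes was 0.077. In R/P it was -0.18, a ratio of 0.89, beside 0.029 over 11214 genes. As labelled, P/N had a median of -0.094, a ratio of 0.94, beside 0.033 over 11140 genes. With TPM in place of FPKM the members' median was -0.048. TPM shifts all genes of a library by the same factor, so this value is not to be set beside 0.033. Log2 ratios were below 0 in 73 members in R/N (39.7% of all genes), in 73 in R/P (46.0%) and in 67 in P/N (43.2%), and above 0 in 9 in P/N (56.8%). With P and N exchanged, R would stay lowest in the same 71 members.

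The differences were small, and their size was similar from member to member. In R/N the interval lay below 1 in 73 of the 76 members and above it in 1, while 19.7% of all genes lay below 1 and 34.2% above. Rps27 and Rpl26 are among the 73 by their own names, though their whole loci had R/N ratios above 1. In R/P it lay below 1 in 70 members (24.7% of all genes) and above it in 2 (30.8%). In P/N as labelled it lay below 1 in 59 (15.4%) and above it in 4 (22.2%). The high counts of these genes make their intervals narrow. Among 200 other genes with an FPKM of 200 or more, the interval lay below 1 in 58.0% in R/N, 48.0% in R/P and 64.0% in P/N, and R was lowest in 52.0%. The median log2 ratios of those 200 genes were -0.13 in R/N, -0.031 in R/P and -0.10 in P/N. So in P/N as labelled the members' median was close to that of other abundant genes. The distance between the quartiles of the log2 ratio was 0.14 in R/N among members and 0.40 among all genes, and 0.15 against 0.44 in R/P. Most genes have far lower levels than the members, so their ratios carry more counting error. The part of this error in their wider spread was not tested.

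Few members were far apart. At 1.5-fold or more lower in R/N were 4 members (4.45% of all genes), and none was that much higher (7.92%). In R/P 5 were lower (5.16%) and 0 higher (8.98%), and in P/N as labelled 2 were lower (3.55%) and 2 higher (2.22%). At 2-fold, 3 members were lower in R/N (1.87%), 3 in R/P (1.69%) and 0 in P/N (1.53%). None was 2-fold higher in any of the comparisons, where 3.07%, 4.14% and 0.53% of all genes were, in R/N, R/P and P/N. The shares of members lower by 1.5-fold or more were thus near those of all genes.

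**Figure D2:**
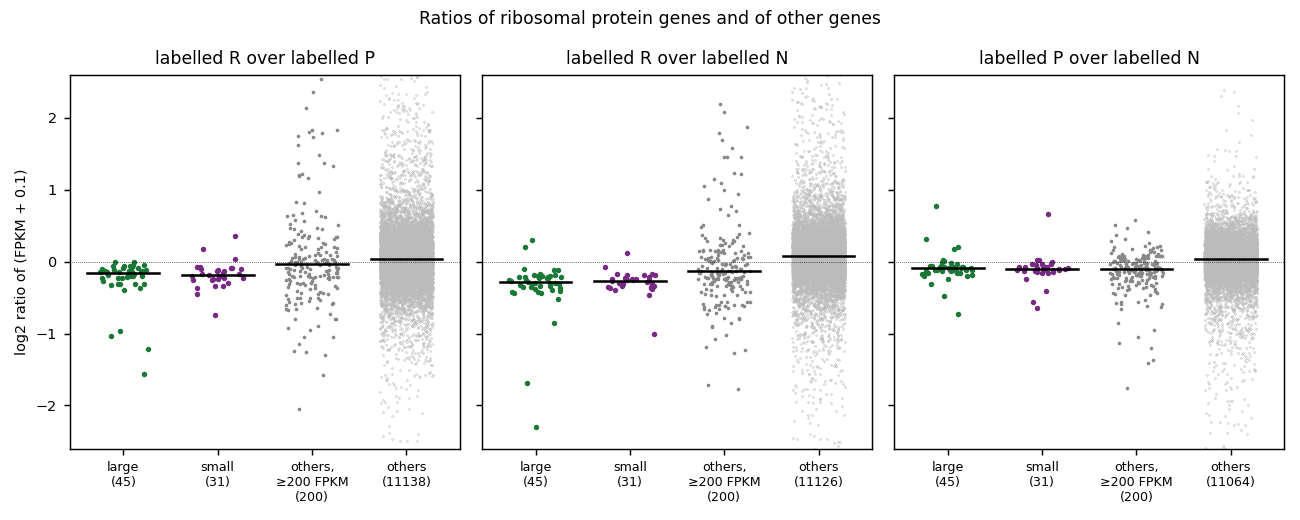
Log2 ratio of FPKM plus 0.1 (vertical) in R/P, R/N and P/N as labelled, for members of the large and small subunit, for other genes that reached an FPKM of 200, and for all other genes. Points are genes, bars medians and numbers in parentheses genes; points beyond 2.6 on either side are not drawn, and the medians of the subunits in R/N lie at -0.28 and -0.27.

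The medians of the large and the small subunit lay close to each other. Median log2 ratios were -0.28 in the large and -0.27 in the small subunit in R/N, and -0.17 and -0.18 in R/P. In P/N as labelled they were -0.093 and -0.10. The large minus the small median was thus -0.0079, 0.017 and 0.0095 in R/N, R/P and P/N. Members are not replicates, so this difference was not tested. The FPKM of the large subunit summed to 22413.8 in R, 25593.2 in P and 27395.1 in N, and that of the small subunit to 14695.0 in R, 16619.1 in P and 17933.1 in N. The large over small ratio of these sums was 1.53 in R, 1.54 in P and 1.53 in N. All members together took 11.2% of the FPKM of all genes in R, 13.0% in P and 13.5% in N. In fragments, not scaled by length, they took 2.95% in R, 3.36% in P and 3.60% in N.

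Members are short, with a median transcript length of 706.5 bases (285 to 5163), so the ratios of other short genes are given beside them. Of 577 other genes with a main transcript of 600 to under 1000 bases, the median log2 ratio was 0.040 in R/N, 0.083 in R/P and -0.065 in P/N. For 222 genes of 200 to under 600 bases these were -0.11, 0.0066 and -0.15. Of 3347 genes of 4000 bases or more they were 0.093, -0.014 and 0.093, so short genes lay below long ones in P/N as labelled and in R/N, but not in R/P. The part of transcript length in the members' ratios was not tested. Across the 76 members the rank correlation of length with the log2 ratio was 0.072 in R/N and -0.067 in R/P, a description over genes of the same libraries.

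The stalk and the center of peptide bond formation lie in the large subunit. Since intervals lay below 1 in 73 (R/N) and 70 (R/P) of the 76 members, against 19.7% and 24.7% of all genes, the counts by role that follow describe the family and set no role apart. All 4 measured stalk and stalk base genes had intervals below 1 in R/N and in R/P. Rplp0, which anchors the stalk, had an FPKM of 554.1 in R, 611.1 in P and 646.6 in N, and Rplp2, an acidic stalk protein like Rplp1, 622.8 in R, 703.3 in P and 744.1 in N. Rpl12, which forms the stalk base with Rplp0, was at 422 in R, 492.6 in P and 563.6 in N, a ratio of 0.75 in R/N (0.73 to 0.77). R was the lowest library for each of them.

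A list drawn up for the surroundings of the peptidyl transferase center and the transfer RNA sites held 6 measured genes. All had intervals below 1 in R/N and R/P. Rpl3, which reaches toward that center, was at 329 in R, 431.5 in P and 471.8 in N. Its ratio was 0.70 in R/N (0.68 to 0.72), where Rpl30, Rpl26 and Rpl17 alone were lower in the large subunit, and 0.76 in R/P (0.74 to 0.78), where these and Rpl7a were. Rpl10, a late-joining protein next to the transfer RNA, was at 955 in R, 1196 in P and 1213 in N. Rpl8 stood at 627 in R, 647 in P and 718.9 in N, with a ratio of 0.969 in R/P (0.943 to 0.996). Rpl10a, of the L1 stalk, was at 325.4 in R, 339.1 in P and 376.8 in N. Rpl27a was at 307 in R, 379.8 in P and 377.2 in N. Rpl28 was on the list too, but a place near the center is not claimed for it here. It was at 955.6 in R, 1058 in P and 1109 in N. The P/N interval by FPKM held 1 for Rpl10, at 0.99 (0.97 to 1.01), and for Rpl27a, at 1.01 (0.98 to 1.04). In fragments, not scaled by length, Rpl10 was below 1 in P/N, at 0.91 (0.89 to 0.93), while the interval of Rpl27a still held 1.

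Rpl5 and Rpl11 bind the smallest ribosomal RNA of the large subunit, and outside the ribosome that complex binds MDM2, the ligase that degrades p53. Rpl5 had an FPKM of 314.5 in R, 329.1 in P and 358 in N. Rpl11 was at 532.8 in R, 685.3 in P and 719.1 in N, and with a ratio of 0.74 in R/N (0.72 to 0.77) it lay further below N than Rpl5, at 0.88 (0.86 to 0.90). Intervals of the 2 genes did not meet in R/P either, at 0.78 (0.75 to 0.80) for Rpl11 and 0.96 (0.93 to 0.98) for Rpl5. An assembled transcript of Rpl11, of 994 bases beside 616 for RefSeq, held 88.4 FPKM in R, 9.42 in P and 10.5 in N. In fragments, not scaled by length, the distance was smaller. Rpl11 was then at 0.81 (0.78 to 0.84) in R/N and 0.85 (0.82 to 0.88) in R/P, and Rpl5 at 0.88 (0.86 to 0.90) and 0.96 (0.93 to 0.98). Trp53, the gene of p53, was at 13.0 in R, 14.5 in P and 16.2 in N, and Mdm2 at 14.1 in R, 14.7 in P and 15.5 in N. Of 9 measured genes of p53 and its targets none was 2-fold apart, with medians of -0.14 in R/N and -0.15 in R/P.

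The list drawn up for the exit tunnel, through which the new peptide leaves, and its rim was the longest of these lists. Of 12 measured genes 11 had intervals below 1 in R/N. Rpl4, which lines the tunnel, was at 666.5 in R, 768 in P and 817.8 in N. Rpl22, at 123.9 in R, 154.2 in P and 161.3 in N, and its paralog Rpl22l1, at 86.3, 100.8 and 111.5 in R, P and N, were both lowest in R. Rpl19 stood at 651.5 in R, 715.4 in P and 816.4 in N, and Rpl23a at 752.7 in R, 831.9 in P and 985.5 in N. Smaller differences were found as well. Rpl31 was at 455.7 in R, 486 in P and 514.7 in N, and Rpl39 at 560.6 in R, 611.2 in P and 599.6 in N, a ratio of 0.93 in R/N (0.90 to 0.98). Rpl35 (524.9 in R, 613.4 in P and 638.5 in N), Rpl37 (133.5 in R, 152.5 in P and 156.8 in N) and Rpl38 (329.9 in R, 377.6 in P and 411.4 in N) lay between these. Rpl17, Rpl26 and Rpl29 were on the same list and are given further below. Rpl29 was the measured gene without an interval below 1 in R/N, and a place at the tunnel is not claimed for it here.

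In the small subunit all 7 measured genes of the mRNA channel and the decoding region had intervals below 1 in R/N and in R/P. Besides Rps9 and Rps15 these were Rps3, a protein of the channel entry, at 411.8 in R, 451.1 in P and 481.7 in N, and Rps23, next to the decoding site, at 720.3 in R, 809.2 in P and 815.2 in N. Rps26, at the mRNA exit, had 748.8 in R, 839 in P and 931.4 in N, and Rps27a, made as a fusion with ubiquitin, had 429.9 in R, 494.5 in P and 534.6 in N. Rps2 was at 58.1 in R, 73.5 in P and 76.0 in N, far under the others of the channel.

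Rps6, the substrate of the kinases downstream of mTORC1, was at 431.1 in R, 462.8 in P and 492.7 in N, with ratios of 0.87 in R/N (0.85 to 0.90) and 0.93 in R/P (0.91 to 0.96). Rpsa, which is also known as a laminin receptor, was at 551.4 in R, 596.8 in P and 653.3 in N. Rpl13a, whose protein leaves the ribosome in interferon gamma treated human monocytes to form the GAIT complex that blocks translation of inflammatory mRNAs, was at 772.7 in R, 957 in P and 1021 in N. Its ratio was 0.76 in R/N (0.74 to 0.77) and 0.81 in R/P (0.79 to 0.83), both lower than the members' medians. Rps28, at 530.5 in R, 686.7 in P and 677 in N, a ratio of 0.77 in R/P (0.74 to 0.81), was lower against P than any other small subunit gene above an FPKM of 100. Rps14, a protein of the platform, was at 766.2 in R, 912 in P and 936 in N. Rpl13, at 928.5 in R, 1029 in P and 1179 in N, had ratios of 0.79 in R/N and 0.90 in R/P. At the other end Rpl27 (519.4 in R, 535 in P and 565.4 in N), Rpl24 (582.5, 606.2 and 664.7 in R, P and N) and Rps24 (193.2, 203.2 and 218.2 in R, P and N) had R/P ratios of 0.97, 0.96 and 0.95. Among 20 members whose human counterparts are mutated in Diamond-Blackfan anemia, a failure of red cell production, the median log2 ratio was -0.24 in R/N and -0.15 in R/P. In R/N 19 of them had intervals below 1, close to the share of the whole family (73 of 76), with Rpl35a as the exception. Rpl26 and Rps27, among the 19, turn by their whole loci, as given below.

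The rule for named genes leaves out 26 members, and since it takes the ends of the ratios their range is narrower by construction. Their log2 ratios lay between -0.43 and -0.18 in R/N, and between -0.34 and -0.077 in R/P. Introns of these genes commonly carry snoRNA genes, and 30 of these lie within 21 members, 4 of them in Rpl13a. The members sit on 19 chromosomes, 14 of them on chromosome 7.

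The paralog Rps27l ran against the rest. Rps27l replaces Rps27 in some ribosomes and is known as a target of p53. It had an FPKM of 94.4 (88.1 to 101.0) in R, 73.5 (67.8 to 79.6) in P and 87.3 (81.1 to 93.9) in N. R was thus highest, with a ratio of 1.285 in R/P (1.16 to 1.43), while its interval in R/N held 1, at 1.08 (0.98 to 1.20). Rps27l had no near-identical copy among annotated transcripts, and its 840, 610 and 725 fragments in R, P and N lay on a single RefSeq transcript. Rpl35a was at 100.5 in R, 100.7 in P and 87.1 in N, the one member whose interval lay above 1 in R/N, at 1.15 (1.05 to 1.27). Of its FPKM in R, 47.6 lay on an assembled transcript at 0 in P and N. On RefSeq transcripts alone it was at 52.9 in R, 100.7 in P and 87.1 in N, a log2 ratio of -0.72 in R/N, so its direction turned. With all transcripts its ratio was 1.00 in R/P (0.91 to 1.10). It had 14 near-identical copies. Another exception, Rpl29, was at 4.39 in R, 4.41 in P and 3.54 in N, on 54, 50 and 45 fragments, and its intervals for all 3 comparisons held 1. Rpl36a, with a ratio of 0.93 in R/N (0.88 to 0.97), had 330.4 in R, 353.6 in P and 356.7 in N.

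Members differ in how many near-identical copies stand among annotated transcripts, where copies were searched. Over 90% of the coding sequence or more at 95% identity or more, 503 copies were counted for the 76 members, with a median of 5 and a range of 0 to 30. Of the copies found for all symbols of the rule, 542 were processed pseudogenes and 19 protein-coding genes. Rpl8, Rps3 and Rps27l were among those with none. The 5 members with 20 copies or more were Rpl7a (30), Rpl29 (27), Rps2 (24), Rps12 (22) and Rpl17 (20), and their median of mean FPKM was 91.1, against 644.3 for the 34 members with 0 to 4 copies. Rpl21, with 56 copies, did not reach an FPKM of 1, at 0.47 in R, 0.53 in P and 0.76 in N. Near-identical copies can take or share reads, and their part in these levels was not tested. Rpl10l, Rpl39l, Rpl3l and Rps4l were at 0.056 or less in each library. Rpl10l and Rpl39l are known from testis and Rpl3l from muscle.

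The spread of the ratios did not follow the number of copies step by step. Between the quartiles the log2 ratio in R/P spanned 0.96 over the 5 members with 20 copies or more, 0.077 over the 11 with 10 to 19, 0.20 over the 26 with 5 to 9 and 0.094 over the 34 with 0 to 4. In R/N these spans were 0.27, 0.10, 0.15 and 0.13. Rpl17 was at 56.2 in R, 115.2 in P and 101.9 in N, a ratio of 0.49 in R/P (0.46 to 0.52). Rpl7a stood out by its level in P, with 225.9 in R, 442.3 in P and 259.3 in N. In R/P its ratio was 0.51 (0.49 to 0.53), while in R/N it was 0.87.

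StringTie also built transcripts from the reads, and for part of the members the split of FPKM between these and the RefSeq transcript of the same gene differed from library to library. In 20 members the RefSeq transcripts held under 80% of the gene's FPKM in at least 1 library. Rpl10 is the clearest case. On its RefSeq transcript it had 235.7 in R, 827.2 in P and 49.2 in N, but with its assembled transcript 955, 1196 and 1213 in R, P and N. For Rps12 the RefSeq transcript held 289.8 in R, 0 in P and 415.6 in N. Rps2 was at 0 on its RefSeq transcript in every library and reached an FPKM of 1 only with assembled transcripts. Gene levels here are sums over both kinds.

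**Figure D3:**
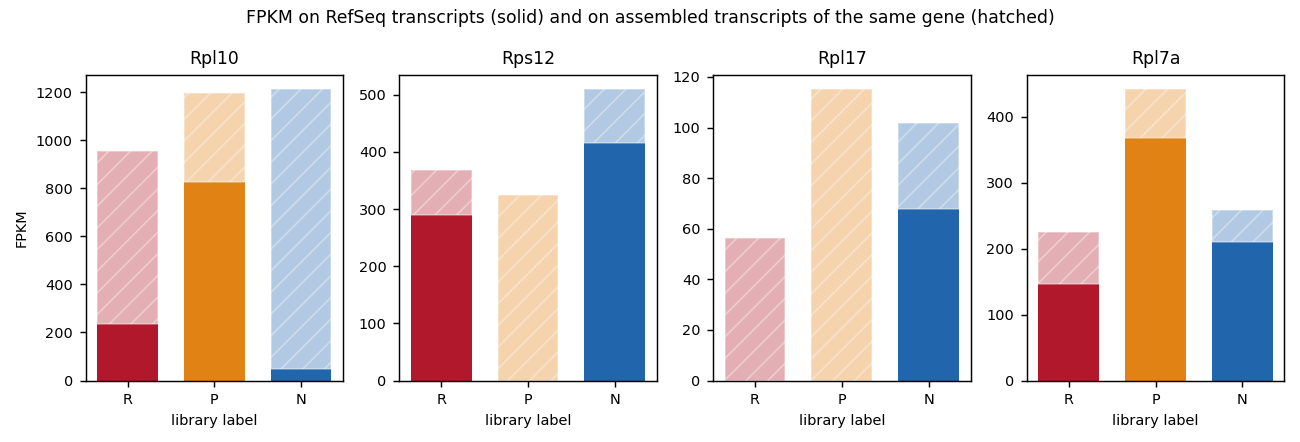
FPKM (vertical) of 4 members in the libraries labelled R, P and N, as stacked bars of RefSeq transcripts (solid) and assembled transcripts of the same gene (hatched). For Rpl10 the solid part goes to 235.7 in R, 827.2 in P and 49.2 in N while the whole bar stands at 955, 1196 and 1213.

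Where the assembled transcript differs in length, FPKM can differ where fragments do not. Rps15a had an FPKM of 52.7 in R, 87.9 in P and 55.3 in N, a ratio of 0.60 in R/P (0.58 to 0.62). Its fragments per 1000000 of the library, with no division by length, were 245 in R, 286.8 in P and 285.4 in N, a ratio of 0.85 in R/P (0.82 to 0.89). Its RefSeq transcript in the files has 5163 bases and the assembled one, which held 34.9 FPKM in P and 5.62 in R, has 384. Rps12 was at 368.2 in R, 324.7 in P and 510 in N by FPKM, where R lay above P, and at 201.7, 244.3 and 278.4 fragments per 1000000, where R was lowest. Counted in fragments, which was added once the data had been seen, R was lowest in 73 of the 76 members, and the exceptions were Rpl29, Rpl35a and Rps27l. The members' median log2 ratio was then -0.28 in R/N and -0.20 in R/P, and the highest was 0.36 in R/P. Rpl7a and Rpl17 kept their ratios in R/P, at 0.49 and 0.49.

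A second name stands at the position of 4 members. The files place transcripts named Rps27rt, Rpl34-ps1, Gm12191 and Gm15772 at the loci of Rps27, Rpl34, Rpl30 and Rpl26. RefSeq annotates these 4 genes elsewhere, on chromosomes 9, 6, 11 and 5 in that order, as copies without introns or transcribed pseudogenes. For Rps27 (chromosome 3, 90212667 to 90213648, GRCm38) the line with that name, a non-coding RefSeq transcript, held 21.1 in R, 28.7 in P and 42.4 in N. The line named Rps27rt at the same place held 941.4 in R, 1108 in P and 856.1 in N. The coding sequences of Rps27 and Rps27rt are identical over 252 bases, as the first 60 bases show, where capitals in Rps27l mark the bases that differ from Rps27.
Rps27, chromosome 3: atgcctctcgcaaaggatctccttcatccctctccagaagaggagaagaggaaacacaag
Rps27rt, chromosome 9: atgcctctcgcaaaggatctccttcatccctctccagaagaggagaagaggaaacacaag
Rps27l, chromosome 9: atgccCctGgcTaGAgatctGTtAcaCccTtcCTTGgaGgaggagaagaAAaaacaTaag
Of these 60 bases Rps27l differs at 18, so reads of these bases can be told apart between Rps27 and Rps27l but not between Rps27 and Rps27rt.

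The 3 members past 2-fold in R/N were Rpl30, Rpl26 and Rps27, and all 3 are of this kind. By its own name Rps27 had a log2 ratio of -1.01 in R/N, and the whole locus, at 962.5 in R, 1137 in P and 898.6 in N, had 0.099. Rpl26 was at 3.29 in R, 7.79 in P and 10.8 in N, a log2 ratio of -1.69 in R/N, and its locus at 12.1, 12.6 and 10.8 had 0.16. The line of Gm15772 there held 8.80 in R, 4.76 in P and 0 in N. Rpl34 was at 120.6 in R, 131.2 in P and 162.4 in N, and its locus at 570.6, 672.4 and 676.3 had -0.25 in R/N, near the members' median. Rpl30 alone kept its direction and its size past 2-fold. It was at 12.6 (10.7 to 14.8) in R, 37.4 (33.8 to 41.3) in P and 62.3 (57.6 to 67.3) in N, and its locus at 25.4, 51.1 and 89.1, with log2 ratios of -1.81 in R/N and -1.01 in R/P. Rpl30 had 12 near-identical copies, and its level was far under the median of the members. Without the 4 members, none was 2-fold apart in R/N (1.87% of all genes were lower) and 1, Rpl17, in R/P.

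**Figure D4:**
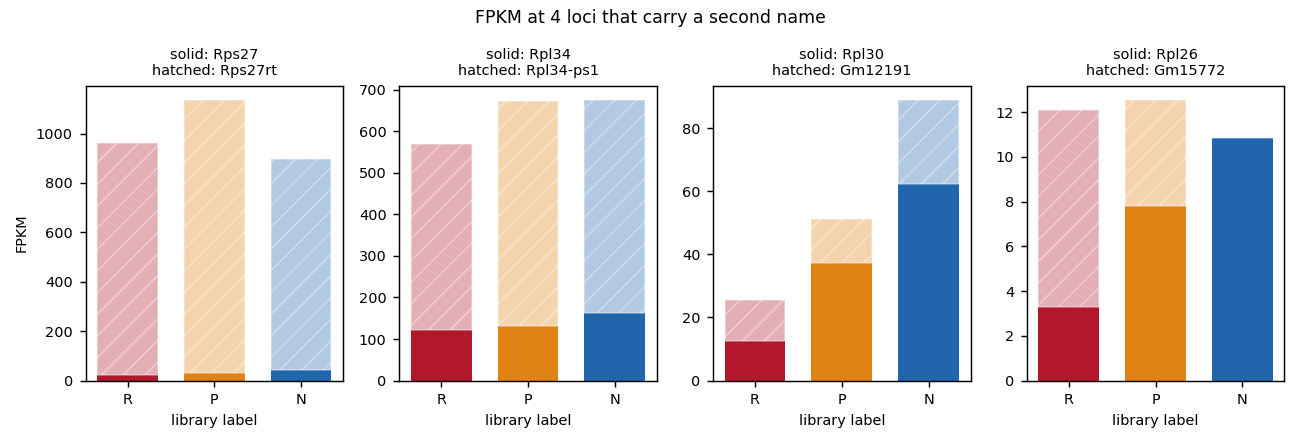
FPKM (vertical, own scale in each panel) at the loci of Rps27, Rpl34, Rpl30 and Rpl26 in the libraries labelled R, P and N, as stacked bars of the member (solid) and of the second name placed there (hatched). The whole bar of Rps27 stands at 962.5 in R, 1137 in P and 898.6 in N, while its solid part goes to 21.1, 28.7 and 42.4.

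Ribosomal protein genes that the naming rule leaves out were lowest in R in 5 of 8 cases. R was lowest for 32.6% of all genes and for 52.0% of other genes with an FPKM of 200 or more. Fau, whose protein is cut into Rps30 and a ubiquitin-like part, was at 967.6 in R, 1254 in P and 1425 in N. Rps3a1 was at 843.9 in R, 968.2 in P and 1025 in N. Gnb2l1 (RACK1), a scaffold on the small subunit, was at 727 in R, 810.8 in P and 904.9 in N. Over the 8 measured genes the median log2 ratio was -0.30 in R/N and -0.21 in R/P, and 5 and 6 of them had intervals below 1. Such intervals were found in 19.7% and 24.7% of all genes, and in 58.0% and 48.0% of other genes with an FPKM of 200 or more. Rps27rt, which shares the locus of Rps27, had a ratio of 1.10 in R/N (1.06 to 1.14) and 0.85 in R/P (0.82 to 0.88). Rpl36al was at 228.4 in R, 218.3 in P and 229 in N, with both intervals holding 1. Rpl7l1 was highest in R, at 24.0 in R, 16.0 in P and 19.4 in N. Its product is a homolog of Rpl7 known from ribosome assembly.

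Genes of ribosome assembly lay the other way, with higher values in R. Of 49 measured genes for nucleolar proteins and assembly factors, 45 had a log2 ratio above 0 in R/N, where 60.3% of all genes did, and 46 in R/P, where 54.0% did. The intervals lay above 1 in 35 and 36 of them (34.2% and 30.8% of all genes), and the medians were 0.24 and 0.33. In P/N as labelled the median was -0.11, with 2 intervals above and 12 below 1 (22.2% and 15.4% of all genes). Rrp9, a protein of the U3 snoRNA complex, was at 22.04 in R, 9.22 in P and 11.4 in N, and Rrp12, which acts in export of the subunits, at 4.80 in R, 2.39 in P and 2.196 in N. Heatr1, needed for early processing of the precursor RNA, was at 4.18 in R, 2.19 in P and 2.22 in N, and Mrto4, whose yeast counterpart acts in stalk assembly, at 16.8 in R, 9.13 in P and 12.1 in N. Npm1, the abundant nucleolar protein nucleophosmin, was lower, at 315.6 in R, 389.8 in P and 382.1 in N.

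**Figure D5:**
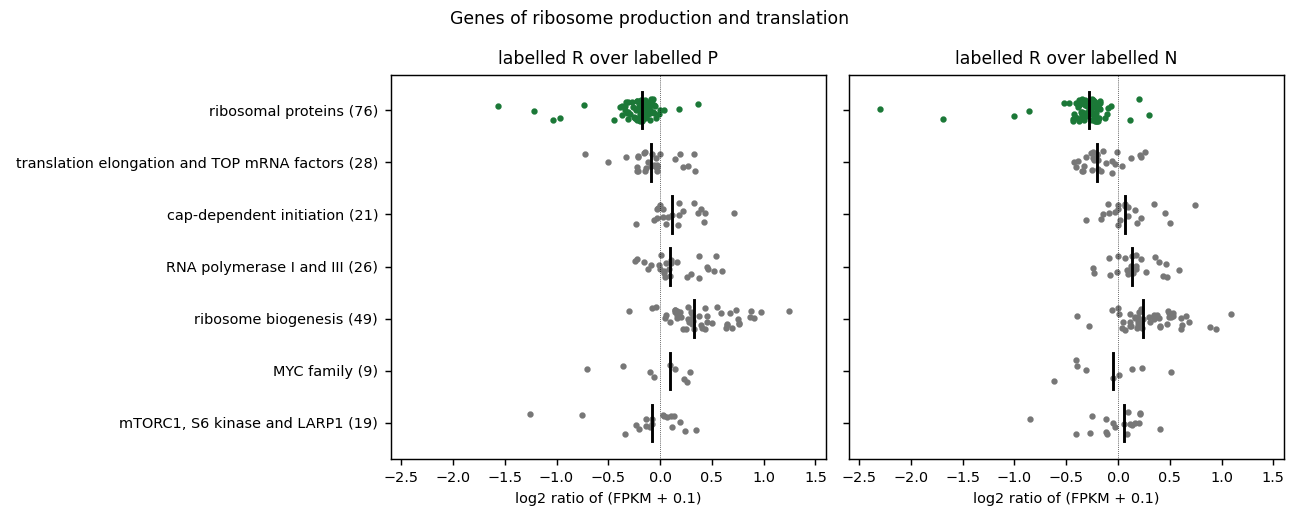
Log2 ratio of FPKM plus 0.1 (horizontal) in R/P (left) and R/N (right), for the members and 6 lists of genes of ribosome production and translation. Points are genes, bars medians and numbers in parentheses measured genes; the medians of the members lie at -0.18 and -0.28 and those of ribosome biogenesis at 0.33 and 0.24.

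Other genes of translation lay between these. Translation elongation factors and further TOP mRNAs, 28 measured, had a median of -0.20 in R/N and -0.083 in R/P. Intervals lay below 1 in 21 and 15 of them (19.7% and 24.7% of all genes, 58.0% and 48.0% of other genes with an FPKM of 200 or more). They lay above 1 in 4 and 6 (34.2% and 30.8% of all genes, 34.5% and 39.0% of those other genes). Eef1a1, the elongation factor that delivers transfer RNA, was at 4100 in R, 4783 in P and 5208 in N, and Eef2, which moves the ribosome along, at 1398 in R, 1628 in P and 1737 in N. Vim, the filament protein vimentin, was at 878.1 in R, 1449 in P and 1162 in N. Eif3d, of the scaffold that brings the small subunit to the mRNA, was at 69.4 in R, 54.9 in P and 59.7 in N. For 21 genes of cap-dependent initiation the medians were 0.068 in R/N and 0.11 in R/P, and for 26 subunits and factors of RNA polymerases I and III 0.14 and 0.091. Genes of mTORC1, its regulators and LARP1 (19 measured) had medians of 0.055 in R/N and -0.074 in R/P. Ddit4, an inhibitor of mTORC1 also known as REDD1, was at 188.8 in R, 450.8 in P and 340.4 in N, the only gene of that list 2-fold apart. Larp1 was at 43.9 in R, 34.5 in P and 37.8 in N. Myc, a transcription factor known to drive ribosome production, was at 40.1 in R, 32.7 in P and 52.7 in N.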

How the data were processed

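RNA of CSCsp was read in 3 libraries, 1 per condition, grouped by the submitters' labels. The authors aligned reads with HISAT2 2.2.0 and quantified RefSeq and assembled transcripts with StringTie (2.1.3 by the processing notes, 2.1.5 by the file headers). Coverage, FPKM and TPM per transcript are values as the authors deposited them, inside other text of a GTF file. The notes name mm9, while positions match GRCm38. How reads that fit several places were treated is not given in the sources used here. Gene FPKM was summed over named RefSeq transcripts and 9352 assembled transcripts that share exons with the gene, and 3168 were left out. On lines with the gene's name alone, 75 genes pass FPKM 1. Fragments are coverage times length over 300 bases. Log2 ratios have a pseudocount of 0.1 FPKM, which understates changes of low genes. Folds of 1.5 and 2 were counted, with no test between single libraries. Named members are the 4 highest and 4 lowest ratios (R/N, R/P) per subunit among genes with FPKM of at least 20, the 4 highest levels, all past 2-fold, and members of fixed role lists. From other lists up to 4 genes with the largest ratio for R/P were taken, and others named were picked after their values were seen. Some genes are not reported here. Members, lists and rules were chosen with earlier results of these data known. Copies were found with blastn 2.17.0 in GENCODE vM21 transcripts. Intervals and folds were tested on simulated data with counting error alone. Shifts of FPKM between transcripts of a gene were not simulated, so that test does not cover them. Python 3.11.15 was used with Matplotlib 3.10.9, SciPy 1.17.1, pandas 2.3.3 and NumPy 2.4.6.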

Additional observations from a re-analysis of the deposited data

How the results depend on the processing

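No paired analysis was possible because each condition has 1 library, and for the same reason no library could be left out. The members' medians stayed below 0 in R/N and R/P under each alternative, and a pseudocount of 0.01 and a filter of FPKM 5 altered no count of members. A pseudocount of 1, and TPM, left 2 members past 2-fold in R/N where 3 had been. With no filter 6 (R/P), 5 (R/N) and 5 (P/N) were past 1.5-fold. With TPM the P/N medians were -0.048 for all members, -0.047 for the large and -0.057 for the small subunit. The R/N medians were -0.23, -0.24 and -0.23 with TPM, and rescaled by the median ratio of all genes -0.36, -0.36 and -0.35. With the labels of P and N exchanged, P/N medians for all, large and small were 0.094, 0.093 and 0.10, R/N medians -0.18, -0.17 and -0.18, and R/P medians -0.28, -0.28 and -0.27. Members past 1.5-fold in R/P, R/N and P/N numbered 5, 4 and 4 under the labels as given, and 4, 5 and 4 with the labels exchanged. On RefSeq transcripts alone these were 8, 8 and 7, and past 2-fold 6, 5 and 5. With the transcript of highest mean FPKM, 8 (R/P) and 7 (R/N) were past 1.5-fold and 5 (R/P) and 5 (P/N) past 2-fold. Without shared loci 3 (R/P) and 1 (R/N) were past 1.5-fold, and 1 (R/P) and 0 (R/N) past 2-fold. Of the alternatives added once the data had been seen, whole loci left 2 past 1.5-fold and 1 past 2-fold in R/N, leaving out members with 20 copies or more 3 (R/P) and 2 (P/N) past 1.5-fold, and fragments in place of FPKM 2 in P/N. Log2 ratios turned for Rpl26, to 2.83 in R/N on RefSeq transcripts, 0.18 in R/P by the highest transcript and 0.16 in R/N by the whole locus, and for Rps27, to 0.099 in R/N by the whole locus. Smaller log2 ratios turned as well, among them in R/N those of Rpl35a (-0.72), Rpl29 (-0.42) and Rpl10 (2.26) on RefSeq transcripts, in R/N those of Rpl35a (-2.33), Rpl29 (-0.42), Rpl17 (0.72) and Rps2 (0.13) by the highest transcript, in R/P those of Rpl10a (0.19 by both) and Rpl10 (0.96 by the highest transcript), and in R/P that of Rps12 in fragments (-0.28). The large over small ratio of sums was 1.61, 1.74 and 1.597 in R, P and N on RefSeq transcripts, 1.55 (R) and 1.58 (N) by the highest transcript, 1.52 (N) without shared loci, 1.53 (P) and 1.54 (N) with labels exchanged, 1.54 (N) without the largest contributor of each subunit, 1.46, 1.48 and 1.49 by whole loci, and 1.55 (R) and 1.56 (N) without many-copy members. The share of FPKM in R, P and N was 11.8%, 13.5% and 14.1% on RefSeq transcripts, 12.2%, 13.9% and 14.7% by the highest transcript, 11.2%, 12.9% and 13.4% without shared loci, 10.5%, 12.2% and 12.6% without the largest contributors, 11.7%, 13.5% and 13.9% by whole loci and 11.0%, 12.7% and 13.2% without many-copy members, and 13.5% (P) and 13.0% (N) with labels exchanged. The causes were not tested, beyond what each alternative leaves out. Depth limits Rpl29 and Rpl26, with few fragments.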
